A study of Mus musculus with 18 samples.

Results

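The genes described here are 10 imprinted genes that act on growth and lie outside the Dlk1-Dio3 region, namely Igf2, H19, Igf2r, Cdkn1c, Plagl1, Peg3, Mest, Grb10, Nnat and Phlda2. They were chosen by name, and every row of the deposited expression table that carries the accession of such a gene was taken. This gave 17 transcript rows of 29851, and 10 genes of 23421. Accessions of 9 genes were matched to symbols through RefSeq. The row used for H19 (NR_001592) has an accession outside that RefSeq table and was identified by its position. It shares its locus, chr7:149761437-149764051 on mm9, with the microRNA gene Mir675, which RefSeq places inside H19, and it spans 2615 bases against 2617 for H19 in RefSeq.

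Expression was measured by RNA-seq in 6 libraries of mouse cells, 1 per group, all of 129/Ola background. In the order used below, they are embryoid bodies (EBs, aggregates of differentiating cells) labelled as EED knock-out and as wild type, undifferentiated embryonic stem (ES) cells of the same E36 line with the same labels, and E14 ES cells with a Setd2 knock-down (shSetd2) or a scrambled control hairpin (shCtrl). ES cells grew on gelatin in 15% serum with leukemia inhibitory factor. EBs formed over 48 hours in hanging drops of 1000 cells without that factor, received 0.5 µM all-trans-retinoic acid from day 2 to day 5 and stayed in culture up to day 9, and E14 cells were transduced with pLKO.1 lentivirus, selected with puromycin and collected on day 4 after selection. The labels name neither the Eed allele nor the number of clones. Eed is a core subunit of Polycomb repressive complex 2 (PRC2), which methylates lysine 27 of histone H3, and Setd2 trimethylates lysine 36. A further 12 ChIP-seq samples of histone marks were not analysed here.

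Imprinted genes are transcribed mainly from the copy inherited from 1 parent, and many of them set the growth of the embryo and placenta. Igf2, Plagl1, Peg3, Mest and Nnat are expressed mainly from the paternal copy in mice, and H19, Igf2r, Cdkn1c and Phlda2 mainly from the maternal copy, while Grb10 uses the maternal copy in most tissues and the paternal copy in neurons. Igf2 and H19 share enhancers, and an imprinting control region between them, bound by the insulator protein CTCF on its unmethylated maternal copy, decides which of them those enhancers reach. The RNA values used here are totals over both copies, so they carry no information on allele usage.

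Promoter sequence is shown first for 4 members that the results turn on and whose RefSeq promoter holds a short motif tied to imprinting. ZFP57, a zinc finger protein that keeps imprints in mouse ES cells, recognises TGCCGC when it is methylated. The promoters below, from 250 bases before to 50 bases after a RefSeq start on GRCm38.p6, are written in lower case with this hexamer or its reverse complement GCGGCA in capitals, after a search of both strands. RefSeq gave 14 promoters for 8 members, 4 of them for Igf2, whose second start is shown.
Igf2, chr7:142661222-142661521, minus strand: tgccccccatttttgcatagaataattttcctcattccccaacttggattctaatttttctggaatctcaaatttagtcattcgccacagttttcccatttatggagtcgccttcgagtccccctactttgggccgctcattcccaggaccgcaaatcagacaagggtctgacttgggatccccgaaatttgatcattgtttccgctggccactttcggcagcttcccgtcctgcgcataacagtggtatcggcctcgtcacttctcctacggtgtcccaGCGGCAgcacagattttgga
Plagl1, chr10:13090582-13090881, plus strand: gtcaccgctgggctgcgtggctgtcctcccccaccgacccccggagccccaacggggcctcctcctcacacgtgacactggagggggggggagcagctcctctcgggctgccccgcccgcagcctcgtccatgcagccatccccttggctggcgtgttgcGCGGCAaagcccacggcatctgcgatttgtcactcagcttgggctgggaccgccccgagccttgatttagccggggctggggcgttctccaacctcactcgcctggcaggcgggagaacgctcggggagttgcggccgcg
Grb10, chr11:12037371-12037670, minus strand: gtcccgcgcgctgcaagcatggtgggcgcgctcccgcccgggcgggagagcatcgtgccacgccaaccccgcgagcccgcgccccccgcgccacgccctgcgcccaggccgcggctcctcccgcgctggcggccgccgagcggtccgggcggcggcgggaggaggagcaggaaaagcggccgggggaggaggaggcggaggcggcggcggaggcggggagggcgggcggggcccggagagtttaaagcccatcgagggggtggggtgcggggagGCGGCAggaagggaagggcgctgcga
Nnat, chr2:157559828-157560127, plus strand: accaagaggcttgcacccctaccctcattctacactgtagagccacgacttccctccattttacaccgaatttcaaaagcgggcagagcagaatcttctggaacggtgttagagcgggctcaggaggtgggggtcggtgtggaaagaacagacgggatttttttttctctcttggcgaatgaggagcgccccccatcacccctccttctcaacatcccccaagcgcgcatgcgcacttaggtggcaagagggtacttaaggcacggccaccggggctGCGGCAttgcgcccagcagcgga
The hexamer was found in 6 of the 14 member promoters, which is 42.9%, and in 11.6% of 32851 promoters of the same length. The Mest promoters with a match overlap each other nearly entirely, so they are not independent. CpG dinucleotides numbered 14 in the Igf2 promoter shown, 26 in Plagl1, 45 in Grb10 and 17 in Nnat, with a median of 7 over all promoters. The hexamer itself holds a CpG, so choosing promoters that have it favours higher counts. Member promoters without it ranged from 2, in the first of Igf2, to 34, in Igf2r. The 32851 promoters were not matched to the members for CpG. These are matches of letters, and no binding or methylation was measured here. For H19 the sequences at hand are those of the microRNA within it, shown because they tie the row to the gene, with the seed (bases 2 to 8) in capitals.
mmu-miR-675-5p: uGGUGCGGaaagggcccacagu
mmu-miR-675-3p: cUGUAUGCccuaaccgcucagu
The row of Mir675 itself was listed at 0 in every library, as was that of Mir335 in Mest.

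The deposited unit is FPKM, the fragment count scaled to transcript length and library size. With 1 library per group there is no replicate spread, so no test was run, and all statements compare these libraries and not the conditions at large. A difference is that of log2(FPKM + 1), given as the first library named minus the second. A gene was called higher or lower where the difference was at least 1 in size, among genes that reached an FPKM of 1 in at least 1 library. Library totals ranged from 452782 to 598935 FPKM, and low values gave relative depths from 0.798 to 1.18 of ES wild type. Eed mRNA does not check the label, with 21.8 FPKM in the EB library labelled Eed KO and 25.04 in EB wild type, and with 77.8 in the ES library labelled Eed KO and 72.3 in ES wild type. Setd2 had 2.59 FPKM in shSetd2 and 16.8 in shCtrl. The EB library labelled Eed KO also stood apart from the one labelled ES Eed KO in Y-linked RNA, with Eif2s3y at 0.0628 FPKM in the EB library and 20.4 in the ES library. Eif2s3y had 25.7 FPKM in EB wild type and 36.9 in ES wild type. Trp53, the p53 gene, was listed at 4.8e-06 FPKM in the EB library labelled Eed KO, against 61.7 in EB wild type. It had 65.5 FPKM in the ES library labelled Eed KO, 239 in ES wild type and 63.7 in shCtrl. The E36 ES libraries were thus not matched in these genes either. Whether these features bear on the differences below was not tested. Genes of chromosome 3 (no member), chromosome 6 (Mest) and chromosome 11 (Grb10) were shifted as whole chromosomes between the Eed labels. Whole-chromosome values were taken over genes with an FPKM of at least 5 in some library, relative to the median of all such genes. These median differences were 0.58, 0.52 and -0.54 in the EB library labelled Eed KO against EB wild type. They were 0.34, 0.49 and -0.47 in the ES library labelled Eed KO against ES wild type. In shCtrl against ES wild type they were 0.05, 0.08 and -0.43, and chromosomes 8 and 14 (no member) were at -0.32 and -0.19. Chromosome 11 was thus lower than in ES wild type in shCtrl too, without an Eed KO label. In EB wild type against ES wild type chromosome 11 was at -0.04. The E36 wild-type libraries were therefore alike for chromosome 11 and the higher side of these comparisons.

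In the EB library labelled Eed KO, 4 members were over 7 times as high as in EB wild type by the transcript with the highest mean. These were the growth factor Igf2, its clearance receptor Igf2r, the signalling adaptor Grb10 and the placental growth inhibitor Phlda2. With transcripts summed, Igf2 had 1786 and 310 FPKM in those libraries and Grb10 had 74.8 and 10.9, both under 7 times. H19 and Nnat were far lower in the EB library labelled Eed KO. In the ES library labelled Eed KO, Igf2 and H19 were higher together and Nnat lower than in ES wild type. Between EBs and ES cells the members differed most, with Plagl1, Peg3, Mest, Cdkn1c and Igf2 higher in EBs under either Eed label. After Setd2 knock-down, Igf2 was the member past the size rule.

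**Figure D1:**
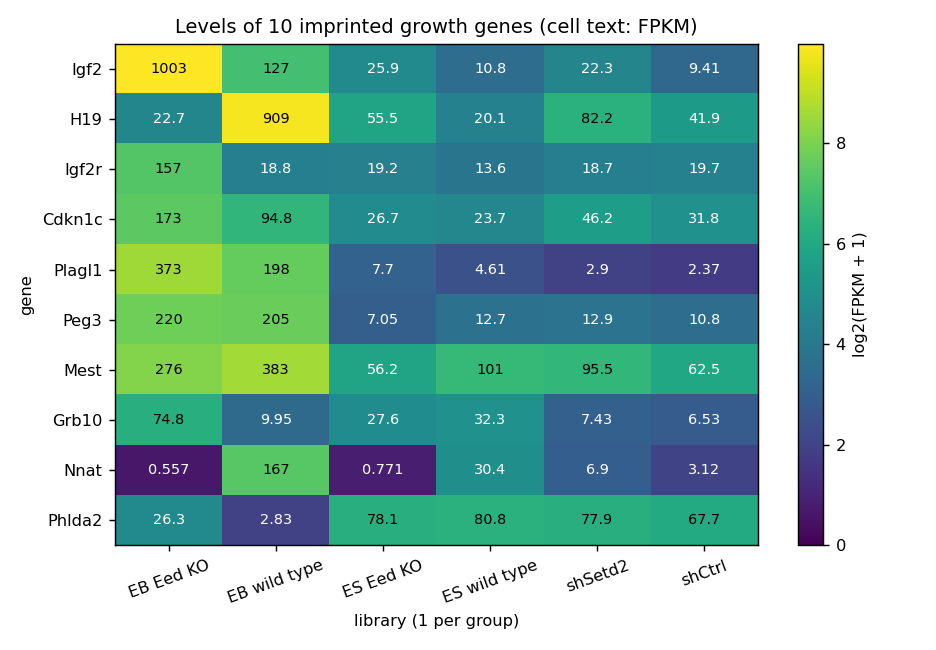
Level of each of the 10 genes (down the page) in each of the 6 libraries (across), coloured by log2(FPKM + 1) and with the FPKM written in each cell. Each gene is shown by its transcript with the highest mean. Igf2 and H19 trade places between the EB libraries. The Nnat transcript shown is under 1 FPKM in both libraries labelled Eed KO.

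Igf2, the fetal insulin-like growth factor, had 1003 FPKM in the EB library labelled Eed KO, 127 in EB wild type, 25.9 in the ES library labelled Eed KO, 10.8 in ES wild type, 22.3 in shSetd2 and 9.41 in shCtrl. The control ES libraries were the lowest and the EB library labelled Eed KO the highest, where Igf2 lay above 99.5% of the genes with an FPKM of at least 1. By the transcript with the highest mean, the difference to EB wild type was 2.97, or 7.87-fold. That of the ES library labelled Eed KO to ES wild type was 1.19. In bulk RNA of this kind, more cells that express a gene and more RNA per cell cannot be told apart.

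H19, the long non-coding RNA on the other side of the shared control region, had 22.7 FPKM in the EB library labelled Eed KO, 909 in EB wild type, 55.5 in the ES library labelled Eed KO, 20.1 in ES wild type, 82.2 in shSetd2 and 41.9 in shCtrl. It was thus near its lowest level in the EB library in which Igf2 was highest, and its highest level was in EB wild type. The difference between the EB libraries was -5.26, a level 40.1-fold lower in the EB library labelled Eed KO. In ES cells the sign was the other way, with 1.42 between the ES library labelled Eed KO and ES wild type. Against the E14 shCtrl library that ES difference was 0.40, under the size rule, since shCtrl itself exceeded ES wild type by 1.03.

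Since FPKM is per length, the pair can be set against each other within a library. The ratio of Igf2 to H19 was 44.2 in the EB library labelled Eed KO and 0.140 in EB wild type. It was 0.467 in the ES library labelled Eed KO and 0.536 in ES wild type, and 0.271 in shSetd2 and 0.225 in shCtrl. The EB library labelled Eed KO was therefore the only library of the 6 with more Igf2 than H19 by the transcript used, whereas the ratio hardly differed within either ES line. With the 3 Igf2 transcripts summed, the ratio was 78.7 and 0.341 in those EB libraries and also exceeded 1 in E36 ES cells, at 1.45 and 1.08.

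**Figure D2:**
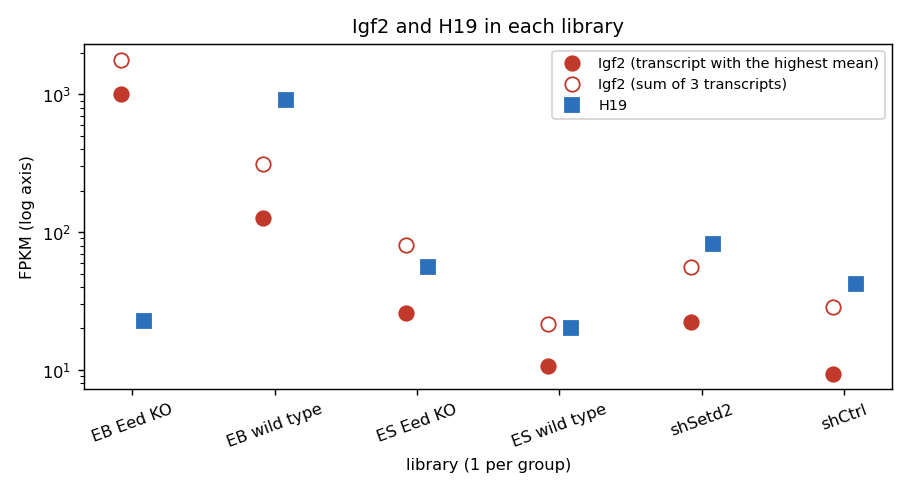
Igf2 (circles, filled for the transcript with the highest mean and open for the sum of its 3 transcripts) and H19 (squares) in FPKM on a log axis, 1 library per group. Igf2 lies far above H19 in the EB library labelled Eed KO (1003 and 22.7 FPKM) and below it in EB wild type (127 and 909 FPKM).

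The 3 Igf2 rows (locus chr7:149836673-149856261 on mm9) did not change in step. NM_001122736 had 86.5 FPKM in the EB library labelled Eed KO and 5.61 in EB wild type, NM_001122737 had 1003 and 127, and NM_010514 had 697 and 177. Their differences were 3.73, 2.97 and 1.97 in the same order. In ES cells NM_010514 had the largest difference, 2.35, with 51.7 FPKM in the ES library labelled Eed KO and 9.35 in ES wild type. As the authors' software divided shared reads among these rows, their proportions are estimates. The antisense row Igf2os at the same locus had 8.63 FPKM in the EB library labelled Eed KO and 2.60 in EB wild type, and in this unstranded kit its reads cannot be told apart from those of Igf2. The microRNA row Mir483, within Igf2, was listed at 89.1 FPKM in EB wild type and at 0 in every other library.

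Neighbours of the pair did not share 1 direction between the EB libraries. Mrpl23, a mitochondrial ribosomal protein gene beside H19, had 57.1 FPKM in the EB library labelled Eed KO and 72.6 in EB wild type, a difference of -0.34. Th, the catecholamine enzyme tyrosine hydroxylase gene beyond Igf2, had 0.0264 and 7.27 FPKM in those libraries, a difference of -3.01. Lsp1 and Tnnt3, further listed neighbours, had differences of 0.81 and 0.31 there, under the size rule. Ins2, an insulin gene next to Igf2, stayed under 1 FPKM in all 6 libraries.

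**Figure D3:**
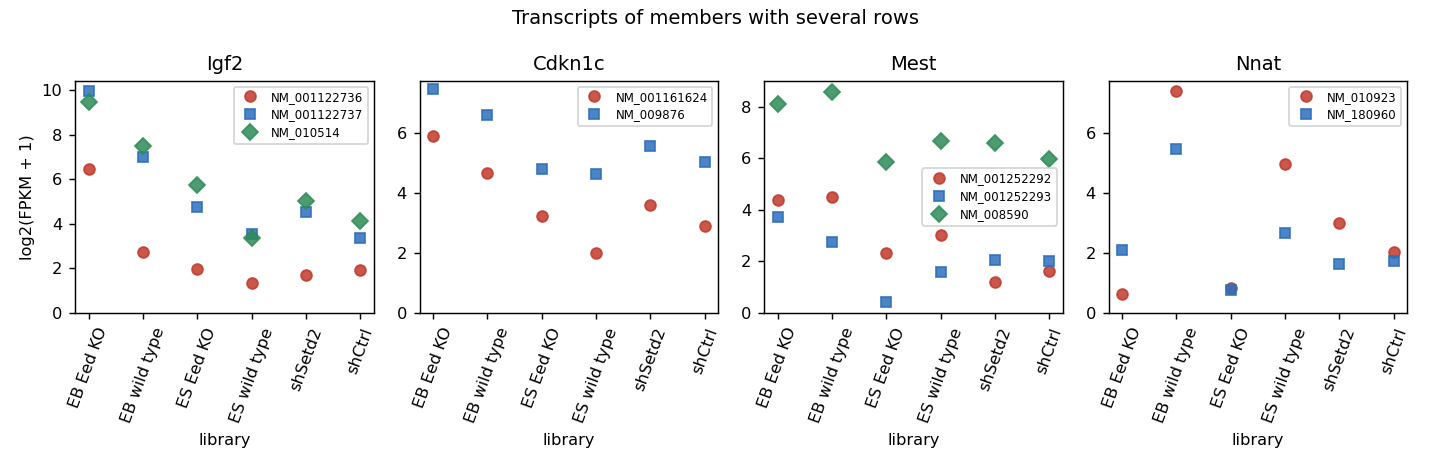
Each transcript row of Igf2, Cdkn1c, Mest and Nnat as log2(FPKM + 1) on the vertical axis in the 6 libraries, with axes that begin at 0. All 3 Igf2 rows are highest in the EB library labelled Eed KO, and both Nnat rows are highest in EB wild type.

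Igf2r, the receptor that carries IGF2 to lysosomes and so limits it, had 157 FPKM in the EB library labelled Eed KO, 18.8 in EB wild type, 19.2 in the ES library labelled Eed KO, 13.6 in ES wild type, 18.7 in shSetd2 and 19.7 in shCtrl. The other libraries lay close together and the EB library labelled Eed KO stood alone above them, with a difference of 2.99 to EB wild type. The locus given for Igf2r, chr17:12875272-13061009 on mm9, also holds Airn, a long RNA transcribed antisense across Igf2r whose transcription silences the paternal Igf2r copy in many mouse tissues. The highest Airn row had 24.3 FPKM in the EB library labelled Eed KO and 7.74 in EB wild type, with 0.230 in the ES library labelled Eed KO and 0 listed in ES wild type. Other Airn rows differed from it, and NR_002853 had 3.88 FPKM in the EB library labelled Eed KO and 5.72 in EB wild type. The kit does not separate sense from antisense RNA at this locus.

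Grb10, an adaptor that dampens insulin and IGF receptor signalling, had 74.8 FPKM in the EB library labelled Eed KO, 9.95 in EB wild type, 27.6 in the ES library labelled Eed KO, 32.3 in ES wild type, 7.43 in shSetd2 and 6.53 in shCtrl. EB wild type and the E14 libraries were low, and the E36 ES libraries lay in between. The difference was 2.79 between the EB libraries and -0.22 between the E36 ES libraries. Relative to the median of the other genes of chromosome 11 it was 3.41 and 0.23. The E14 control differed from the E36 wild type by -2.14, or by -1.66 relative to that chromosome median. A Grb10 difference in ES cells thus depends on the line it is set against. With shCtrl as the control the ES library labelled Eed KO was higher by 1.93. Near Grb10, Ddc, an imprinted neurotransmitter enzyme gene, had 17.7 FPKM in the EB library labelled Eed KO and 32.1 in EB wild type, while Cobl, an actin nucleator gene, had 2.22 and 1.36. The minor Grb10 row NM_001177629 stayed under 2 FPKM in all libraries and was listed at 0 in the EB library labelled Eed KO.

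Cdkn1c and Phlda2 are neighbours in the Kcnq1 domain of chromosome 7, where the paternal non-coding RNA Kcnq1ot1 silences surrounding genes in cis. Cdkn1c, which encodes the cell cycle inhibitor p57, had 173 FPKM in the EB library labelled Eed KO, 94.8 in EB wild type, 26.7 in the ES library labelled Eed KO, 23.7 in ES wild type, 46.2 in shSetd2 and 31.8 in shCtrl. It was higher in EBs than in ES cells, and its differences of 0.86 in EBs and 0.17 in ES cells between the Eed labels were under the size rule. With median-of-ratios rescaling the EB difference was 1.03 and so passed it. The minor row NM_001161624 had differences of 1.24 and 1.21, with 58.4 FPKM in the EB library labelled Eed KO and 24.1 in EB wild type, and 8.32 in the ES library labelled Eed KO and 3.02 in ES wild type.

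Phlda2, a pleckstrin homology domain protein gene whose product restrains placental growth, had 26.3 FPKM in the EB library labelled Eed KO, 2.83 in EB wild type, 78.1 in the ES library labelled Eed KO, 80.8 in ES wild type, 77.9 in shSetd2 and 67.7 in shCtrl. All 4 ES libraries were alike and high, and EB wild type was the lowest. The difference between the EB libraries was 2.83. Kcnq1ot1 had 1.72 FPKM in the EB library labelled Eed KO and 2.20 in EB wild type, and 2.94 in the ES library labelled Eed KO and 2.91 in ES wild type. Nap1l4, a histone chaperone gene at the edge of the domain, had 51.3 and 72.0 FPKM in those EB libraries. Tnfrsf23, another listed neighbour, had 3.20 and 1.05 FPKM there, a difference of 1.04 that passed the size rule. Over the domains of all members, 3 of 23 expressed neighbours were higher and 1 lower between the EB libraries. Of all genes, 7.68% were higher and 9.82% lower. Slc22a18, a transporter gene next to Phlda2, had 0.0206 FPKM in the ES library labelled Eed KO and 1.20 in ES wild type, a difference of -1.11.

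Plagl1, a zinc finger transcription factor known to activate other imprinted genes, had 373 FPKM in the EB library labelled Eed KO, 198 in EB wild type, 7.70 in the ES library labelled Eed KO, 4.61 in ES wild type, 2.90 in shSetd2 and 2.37 in shCtrl. Its levels in EBs were over 40-fold those of the ES cells with the same label, with differences of 5.43 under the Eed KO label and 5.15 in wild type. Between Eed labels its differences of 0.91 in EBs and 0.63 in ES cells were under the size rule. The EB difference was 1.05 with upper-quartile rescaling and 1.09 with median-of-ratios rescaling, which is past the rule.

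Peg3, a zinc finger protein gene that affects growth and maternal behaviour in mice, had 220.3 FPKM in the EB library labelled Eed KO, 205 in EB wild type, 7.05 in the ES library labelled Eed KO, 12.7 in ES wild type, 12.9 in shSetd2 and 10.8 in shCtrl. The EB libraries were nearly equal, with a difference of 0.11, and the ES difference was -0.77. Peg3os, the antisense row of the same locus, had 353 FPKM in the EB library labelled Eed KO and 327 in EB wild type. Zim1, the maternally expressed zinc finger gene beside Peg3, had 45.4 and 10.02 FPKM there, a difference of 2.07 that passed the size rule.

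Mest, which encodes a protein of the alpha/beta hydrolase fold, had 276 FPKM in the EB library labelled Eed KO, 383 in EB wild type, 56.2 in the ES library labelled Eed KO, 101 in ES wild type, 95.5 in shSetd2 and 62.5 in shCtrl. It was higher in EBs than in ES cells under either label, and its differences between Eed labels, -0.47 in EBs and -0.84 in ES cells, were under the size rule. Relative to the median of the other genes of chromosome 6 the ES difference was -1.22, past the rule. The minor rows NM_001252292 and NM_001252293 had 19.7 and 12.2 FPKM in the EB library labelled Eed KO, and 21.6 and 5.72 in EB wild type. Copg2, a coat protein gene that overlaps Mest, had 40.5 FPKM in the EB library labelled Eed KO and 31.8 in EB wild type, and 31.01 in the ES library labelled Eed KO and 18.01 in ES wild type.

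Nnat, a small membrane proteolipid gene of the developing nervous system, had 0.557 FPKM in the EB library labelled Eed KO, 167 in EB wild type, 0.771 in the ES library labelled Eed KO, 30.4 in ES wild type, 6.90 in shSetd2 and 3.12 in shCtrl. By this transcript, the one with the highest mean, both libraries labelled Eed KO were under 1 FPKM, and EB wild type was by far the highest. The differences were -6.75 in EBs and -4.15 in ES cells. E14 shCtrl was itself lower than ES wild type by a difference of -2.93, and against shCtrl the ES library labelled Eed KO had -1.22. The second row, NM_180960, had 3.26 FPKM in the EB library labelled Eed KO and 42.8 in EB wild type, and 0.686 in the ES library labelled Eed KO and 5.28 in ES wild type. With transcripts summed, Nnat had 3.81 and 209 FPKM in those EB libraries and 1.46 and 35.6 in those ES libraries. Blcap, within whose intron Nnat lies, had 19.8 and 26.8 FPKM in those EB libraries and 12.7 and 13.2 in those ES libraries, with differences of -0.42 and -0.06.

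The comparison of EBs labelled Eed KO with wild-type EBs asks how differentiating cells labelled as lacking Eed differ from wild type. Of the 10 members, 4 were higher (Igf2, Igf2r, Grb10 and Phlda2) and 2 lower (H19 and Nnat), against 7.68% and 9.82% of 14772 genes, or 17.5% in either direction. The member median was 0.89 and that of all genes -0.14. In ES cells, 2 members were higher (Igf2 and H19) and 1 lower (Nnat), against 2.82% and 3.01% of those genes (5.84% in either direction), with a member median of 0.06 and a median of -0.03 over all. The difference between these Eed differences, EBs minus ES cells, was at least 1 in size for the same 6 genes called in EBs, with 4 positive and 2 negative values, against 9.13% and 10.1% of all genes and 19.2% in either direction. It was 1.77 for Igf2, -6.69 for H19, 2.52 for Igf2r, 3.01 for Grb10, 2.88 for Phlda2 and -2.60 for Nnat. With transcripts summed it was 0.67 for Igf2, under the rule, and -1.55 for Nnat.

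**Figure D4:**
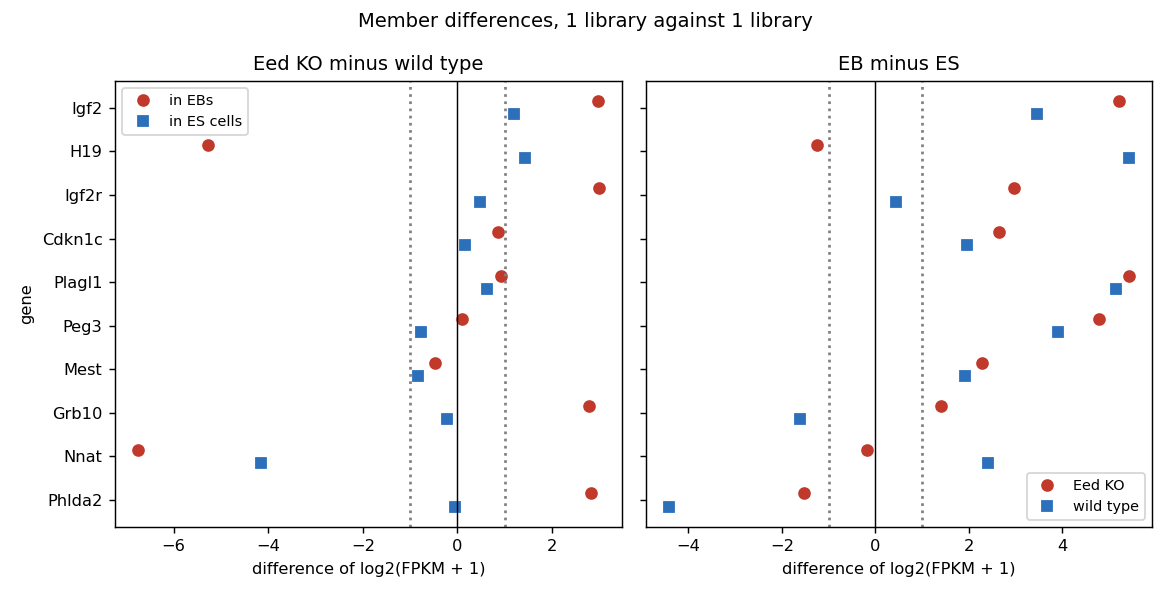
Differences of log2(FPKM + 1) for the 10 genes, on the left between Eed KO and wild type in EBs (circles) and ES cells (squares) and on the right between EBs and ES cells with the Eed KO label (circles) and in wild type (squares). Dotted lines mark the size rule, and H19 lies at -5.26 in EBs and 1.42 in ES cells on the left.

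Differentiation was compared under each Eed label, with EBs set against ES cells. The EB and ES libraries labelled Eed KO also differed in Y-linked RNA and Trp53, as given above. Under the Eed KO label 7 members were higher in EBs and 2 lower, against 19.7% and 18.5% of all genes (38.3% in either direction). In wild type also 7 were higher and 2 lower, against 19.3% and 14.2% (33.5% in either direction). Igf2, Cdkn1c, Plagl1, Peg3 and Mest were higher under both labels and Phlda2 was lower under both. H19 had differences of -1.26 under the Eed KO label and 5.43 in wild type, Grb10 had 1.40 and -1.60, and Igf2r had 2.97 and 0.45. Nnat had -0.19 and 2.42, but 0.97 and 2.52 with its transcripts summed. The second Nnat row NM_180960 had 1.34 under the Eed KO label. The Igf2 difference was 5.22 under the Eed KO label and 3.45 in wild type. These comparisons share libraries with the Eed comparisons, so they are not independent of them.

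Setd2 knock-down in E14 cells was the comparison with the fewest members past the rule. Igf2 was higher by 1.16 and 0 members were lower, against 0.706% and 1.7% of 12317 genes (2.41% in either direction). H19, at 0.96, and Nnat, at 0.94, lay just under the rule and passed it with each of the 3 rescalings, at up to 1.14 and 1.10. Nnat had 0.63 with its transcripts summed and 0.55 with a pseudocount of 5, and its second row NM_180960 had -0.11. Igf2 with its transcripts summed had 55.8 FPKM in shSetd2 and 28.6 in shCtrl, a difference of 0.94 that missed the rule. The median of all genes was -0.13 here. As a yardstick without an Eed or Setd2 label, shCtrl was set against ES wild type, which is a difference of line, hairpin and culture. H19 was higher and Grb10 and Nnat lower, against 3.14% and 5.65% of 12747 genes (8.79% in either direction). That control comparison thus moved 3 of the 10 members, which include 2 of the 3 called between the E36 ES libraries. Its H19 difference of 1.03 was 0.90 with a pseudocount of 5, which left 0 members higher.

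Among 56 other imprinted genes outside Dlk1-Dio3, 48 were expressed in the E36 libraries. In EBs labelled Eed KO, 8 were higher and 6 lower than in EB wild type, beside 7.68% and 9.82% of all genes. The highest differences were those of Asb4 (2.96), an ankyrin repeat gene, of Klf14 (2.85), a transcription factor gene, and of Zim1 (2.07), and the lowest were those of the potassium channel gene Kcnk9 (-2.77), of Peg13 (-2.06), a non-coding RNA of the same locus that was listed at 0 under the Eed KO label, and of Snrpn (-1.71), a splicing protein gene. Their median was 0.00, beside -0.14 over all genes. Asb4 and Klf14 lie on chromosome 6, and relative to it they had 2.65 and 2.54. In ES cells 3 were higher and 2 lower, beside 2.82% and 3.01% of all genes. Among them were Sfmbt2, a Polycomb-related gene, at 1.39 and the tetraspanin gene Cd81 at -1.19. After Setd2 knock-down 0 of 30 passed the rule in either direction, beside 2.41% of all genes. Between shCtrl and ES wild type 0 were higher and 8 lower of 34, beside 3.14% and 5.65% of all genes.

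Of 30 expressed genes of the IGF pathway other than the members, 2 were higher and 3 lower in EBs labelled Eed KO, a share near the 17.5% of all genes called there. Igfbp3, a secreted IGF-binding protein gene on chromosome 11, had 10.2 FPKM in the EB library labelled Eed KO and 86.6 in EB wild type, and 8.53 in the ES library labelled Eed KO and 77.0 in ES wild type. It had 9.67 FPKM in shCtrl, so E36 wild type was the higher control. The IGF receptor gene Igf1r had 14.3 FPKM in the EB library labelled Eed KO and 10.8 in EB wild type, a difference of 0.38. The mRNA-binding protein gene Igf2bp1, also on chromosome 11, had differences of -1.04 in EBs and -1.10 in ES cells, and of -0.43 and -0.65 relative to its chromosome, under the rule. It had 55.3 FPKM in the ES library labelled Eed KO, 119.7 in ES wild type and 60.7 in shCtrl. Igfbp3 stayed past the rule relative to its chromosome, at -2.35 in EBs and -2.59 in ES cells. Grb14, a relative of Grb10, had a difference of 1.12 in EBs.

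A list of 15 factors tied to imprints or DNA methylation also held Tet1, Tet2 and Tet3. Of the 15, 9 were lower in EBs than in ES cells under the Eed KO label and 7 in wild type. Of all genes, 18.5% and 14.2% were lower in these comparisons, and 19.7% and 19.3% higher. Tet3 was the 1 factor higher in each, with differences of 1.85 and 1.86. Between the EB libraries 1 factor was higher and 3 lower, beside 7.68% and 9.82% of all genes. Dnmt3l, a cofactor of DNA methyltransferases, had 0.372 FPKM in the EB library labelled Eed KO and 6.51 in EB wild type, and Zfp57 had 6.43 and 13.98. Setdb1, a histone H3 lysine 9 methyltransferase gene on chromosome 3, had 35.9 and 12.5, a difference of 1.46 that was 1.13 relative to its chromosome. In ES cells 2 of 15 were higher and 0 lower, beside 2.82% and 3.01% of all genes. The higher ones were Dnmt3l, at 367 FPKM in the ES library labelled Eed KO and 155 in ES wild type, and the early embryo factor gene Dppa3, at 90.6 and 36.6. Dppa3 lies on chromosome 6, and its difference of 1.28 was 0.91 relative to that chromosome, under the rule.

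Markers of other cell types differed along with the members. The summed FPKM of 10 neuron markers was 7.94 in the EB library labelled Eed KO and 577 in EB wild type. All 10 were lower past the size rule, beside 9.82% of all genes, and Map2 and Elavl4 were listed at 0 under the Eed KO label. Nnat and H19, both lower there, moved with that list, and its part in their differences was not tested. In ES cells the neuron sum was 173 in the ES library labelled Eed KO and 225 in ES wild type. The sum of 12 mesenchyme markers was 1867 in the EB library labelled Eed KO and 834 in EB wild type, that of 10 cardiac mesoderm markers 171 and 22.0, that of 12 extraembryonic endoderm markers 136 and 54.7, and that of 10 trophoblast markers 37.9 and 13.2. The cardiac sum came mainly from transcription factor genes such as Hand1, at 51.2 and 0.782 FPKM. Of the sarcomere genes, Tnnt2, at 0 and 0.469, and Actc1, at 0.206 and 1.49, had lower values. Myl7, at 1.23 and 0.311, was higher by 0.77, under the size rule. Myh6, at 0.0336 and 0.0682, had a difference of -0.05. The placental markers Prl3d1 and Tpbpa were at 0 in the EB library labelled Eed KO, and the endoderm markers Afp and Ttr stayed under 1 FPKM in every library. Igf2, Igf2r, Grb10 and Phlda2 were higher in the same library as these lists, whose part was not tested. The sum of 8 pluripotency markers was 25.8 in the EB library labelled Eed KO and 238 in EB wild type, and between 3121 and 4420 in the ES libraries, as their labels say.

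**Figure D5:**
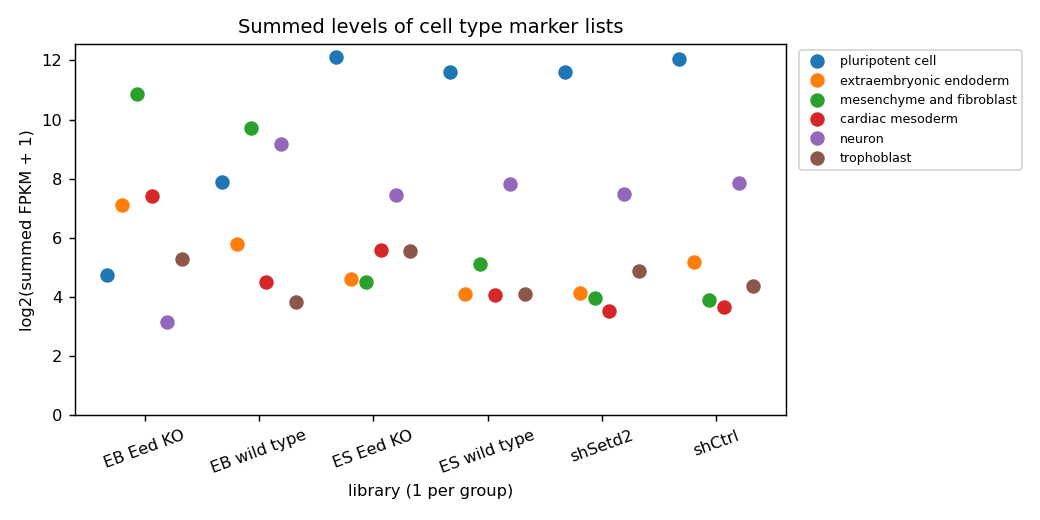
Summed FPKM of 6 cell type marker lists, as log2(sum + 1) on the vertical axis, in each library. Neuron markers are lowest in the EB library labelled Eed KO (7.94 FPKM in all) and highest in EB wild type (577 FPKM).

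The genes closest to a member in profile were sought among 11214 others with an FPKM of at least 5 somewhere, by the root-mean-square distance between centred log2(FPKM + 1) values over the 6 libraries. Igf2 lay closest to Hand2, a heart and limb transcription factor gene, at 0.40, to Mgp, a matrix protein gene, at 0.41 and to Capn6, a calpain family gene, at 0.43. H19 lay closest to Dcc, Olig3 and Robo3, genes of neuronal wiring and neural tube patterning, at 0.62, 0.66 and 0.68. Igf2r lay closest to the transcription factor gene Foxf2 at 0.15, and Cdkn1c to the secreted Wnt modulator gene Sfrp2 at 0.09. The closest profile to Peg3 was its own antisense row Peg3os, at 0.06. For Nnat the closest were short microRNA rows of chromosome 12, the nearest at 0.87. Among the members themselves Cdkn1c and Mest were closest, at 0.53, and Plagl1 and Phlda2 farthest apart, at 4.14.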

How the data were processed

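RNA-seq was analysed in 6 libraries, 1 per group. Reads were aligned with TopHat and quantified with Cuffdiff on the mm9 build, per the submitters' processing notes, and the authors deposited FPKM values per RefSeq transcript. Software versions, the annotation release and any scaling applied across libraries: not given in the sources used here. The kit was TruSeq RNA, per the labels' protocols, which selects poly(A) RNA and does not mark strand. Of 29851 rows, 29300 matched a symbol by accession through RefSeq on GRCm38.p6 (names, neighbours and sequences only) and 551 did not, of which H19 was then placed by locus. Loci are those of the deposited table, written from 1, and can span several genes. Where a gene had several rows, that with the highest mean represents it.

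Differences of log2(FPKM + 1) used a pseudocount of 1, which understates changes of weak genes. The call rule is a difference of at least 1 at an FPKM of at least 1 in 1 of the 4 E36 libraries, or of the 2 compared where E14 cells enter. Chromosome medians set against single genes used the genes that met this level, and whole-chromosome shifts those with an FPKM of at least 5. All 7 comparisons were computed over all genes, with Python 3.11.15 and pandas 2.3.3, and the functions were tested on simulated data. Absolute depth is unknown. Relative depth came from the most common ratio of values under 0.05 FPKM in rows spanning over 2000 bases, at least 704 per library. All 10 members are named. From the other lists, genes past the rule are named, at most 6 each way, with neighbours of the members whatever their values. Which of those are printed, and a few near-miss genes, were chosen after their values were seen. Members and lists were chosen with earlier results of these data known. Alternatives covered pseudocount, level filter, transcript summing, rescaling, chromosome medians (for genes of the other lists added after seeing the data), the size rule, the control library and H19.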

Additional observations from a re-analysis of the deposited data

Results flagged for a closer look

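Several members moved one way in 1 group and the other way in another under the same contrast. The difference was not tested, since each value rests on 1 library against 1. Between the Eed labels, the differences in EBs and in ES cells were -5.26 and 1.42 for H19, 0.11 and -0.77 for Peg3, 2.79 and -0.22 for Grb10, and 2.83 and -0.05 for Phlda2. The last ES value lay between -0.05 and 0.09 over the rescalings, so its sign is not fixed. Between EBs and ES cells, the differences under the Eed KO label and in wild type were -1.26 and 5.43 for H19, 1.40 and -1.60 for Grb10, and -0.19 and 2.42 for Nnat. With transcripts summed Nnat had 0.97 and 2.52, the same direction under both labels. The Grb10 difference of -0.22 turned to 0.23 relative to its chromosome. H19 and Grb10 were past the size rule in opposite directions in that contrast.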

How the results depend on the processing

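Of 37 member differences past the size rule, 30 kept their direction and stayed past it under every alternative run on them. The count of members called after Setd2 knock-down, 1 in the report, was 2 with a pseudocount of 0.1, 0 with a pseudocount of 5 or summed transcripts, 3 with upper-quartile, median-of-ratios or equal-total rescaling or relative to chromosome medians, and 4 with a size rule of 1.5 times. With that smaller rule the count was 6 in the ES library labelled Eed KO against ES wild type and 5 in shCtrl against ES wild type. Grb10 reversed with the E14 shCtrl library as the control, to 1.93 for the ES library labelled Eed KO and to 0.54 for EB wild type, the second of these alternatives chosen after seeing the data. Between the E36 ES libraries the Igf2 difference was 0.97 with a pseudocount of 5 and 1.85 with transcripts summed, and the Nnat difference was -2.62 with a pseudocount of 5. Nnat in EB wild type was 5.34 above shCtrl. Rescaling to equal totals gave H19 a difference of -0.99 between EBs and ES cells labelled Eed KO. Leaving out H19, also chosen after seeing the data, can only take H19 itself from a count. It kept each count in either direction within 1.5 times, which the main calls fixed in advance. By direction it left 1 member higher between the E36 ES libraries, 1 lower between the EB libraries, 1 lower between EBs and ES cells labelled Eed KO, and 0 higher in shCtrl against ES wild type, against 2, 2, 2 and 1 with it. Median-of-ratios rescaling moved the median of all genes between the EB libraries to -0.01, with 1442 genes higher and 1147 lower, against 1135 and 1450 as deposited. Equal totals gave 506 genes higher and 325 lower between the E36 ES libraries, against 417 and 445. The same rescaling gave 3640 and 2058 between EBs and ES cells labelled Eed KO, against 2913 and 2738, and 3601 and 1438 between those of wild type, against 2855 and 2100, where it moved the median of all genes to 0.26. Upper-quartile rescaling gave 138 and 156 after Setd2 knock-down, against 87 and 210. No paired analysis was possible because each group has 1 library. Without replicates or absolute depth, neither biological spread nor counting error can be given.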
